A study of Mustela putorius furo with 8 samples.

Results

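CF cluster 1 was a group of 733 cells among the 11345 retained cells of the CF libraries, and among the 32945 retained cells of all 8 libraries. Its members were the cells that the deposited cell table places in cluster 1 of the CF cells, a cluster for which that table gives the class name centroacinar. Of the 733 cells, 726 came from the CF library of day 2 and 7 from that of day 5, and none came from day 7 or day 9. The label under which it is described here names the genes DLK2 and MMP13, and the marker genes listed with it were DLK2, SCN4B, CCBE1, CD109 and MMP13.

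The cells were ferret pancreatic ductal epithelium (PDE), taken from newborn animals as pancreatic ductal cells, expanded in culture for 10 passages on coated plastic and then polarized at an air-liquid interface (ALI). The CF libraries carry CFTR KO/KO, a knockout of the anion channel whose loss causes cystic fibrosis, and the WT libraries carry the intact gene. Single-cell RNA libraries were made at day 2, 5, 7 and 9 of ALI, 1 for each genotype and day. The study states that cells of several donors of a genotype were pooled. No value below therefore has a replicate error, and donor, culture and genotype cannot be told apart.

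Centroacinar cells sit where the smallest ducts end inside the acini of the exocrine pancreas, and they have been studied as possible progenitors. Polarizing epithelia in culture commonly hold cells that keep contact with the matrix below, marked by keratin 5, the transcription factor p63 and hemidesmosome proteins, and cells at the free surface that make mucins. DLK2 is a membrane protein of the delta-like family related to Notch ligands, SCN4B is an accessory subunit of voltage-gated sodium channels, CCBE1 is a secreted protein that promotes the processing of the lymphatic growth factor VEGFC, CD109 is a membrane-anchored protein that binds TGF-beta, and MMP13 is a collagen-cleaving matrix metalloproteinase.

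Cluster 1 was the most numerous CF cluster at day 2. It took 16.1% of the 4499 cells of that library (95% exact Clopper-Pearson interval 15.1% to 17.2%). It took 0.255% of the 2750 CF cells of day 5 (0.102% to 0.524%). At day 7 it held 0 of 1607 cells, which allows a share of up to 0.187%, and at day 9 it held 0 of 2489 cells, which allows up to 0.121%. All intervals here cover counting error only, and leave out variation between donors and cultures. Because the libraries were merged with no batch correction, the day of sampling and the library cannot be told apart in this pattern.

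The cells of cluster 1 were shallower than the pooled remainder of their library, as were those of clusters 2, 20, 26 and 28. At day 2 their median was 13060 unique molecular identifiers (UMIs, the counts of distinct RNA molecules) per cell, against 20278 in the 3773 other CF cells of day 2, and the medians of clusters 2, 20, 26 and 28 were 12893, 14244, 13215 and 15992 UMIs. Their median mitochondrial share was 6.39%, against 7.24% in the other cells. Together they held 10455287 UMIs, against 91873302 in the others. Of the 726 barcodes of cluster 1 at day 2, 7 were also retained in another library, and any pair of libraries shared between 1 and 14 barcodes.

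Levels are given as CPM, the UMIs of a gene per 1000000 UMIs summed over all cells of a pool. The cells were clustered on these same genes, so a difference between cluster 1 and the rest describes the cluster and was not tested. DLK2 stood at 52.0 CPM in cluster 1 (exact Poisson interval 47.8 to 56.6, 544 UMIs) and at 14.9 CPM in the other CF day 2 cells, a ratio of 3.49 (exact conditional binomial interval 3.15 to 3.85). SCN4B stood at 72.8 CPM against 22.6, a ratio of 3.21 (2.95 to 3.50). CCBE1 stood at 29.7 CPM against 11.004, a ratio of 2.70 (2.37 to 3.07). These 3 markers were more than 2-fold higher in cluster 1, though CCBE1 came under 2-fold, at a log2 difference of 0.94, with equal weight for each other CF cluster. MMP13 had many more UMIs, 3050 in the cluster, and stood at 292 CPM against 150, a ratio of 1.95 (1.87 to 2.03). CD109 stood at 46.1 CPM against 29.3, a ratio of 1.57 (1.43 to 1.73). MMP13 and CD109 were therefore higher than in the pooled remainder by less than 2-fold. Against cells of all 4 CF days both passed it, at log2 differences of 1.53 and 1.59, and MMP13 also did, at 1.16, when proliferating classes and clusters 9 and 10 were left out of the remainder.

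Cluster by cluster, the 5 markers did not share a single peak. Among the 12 CF clusters with at least 50 cells at day 2, SCN4B was highest in cluster 1, and the next was cluster 20 at 52.8 CPM (45.7 to 60.7). DLK2 and CCBE1 were second to cluster 26, a cluster of only 52 cells at day 2, where DLK2 reached 74.4 CPM (56.2 to 96.6) and CCBE1 34.5 CPM (22.6 to 50.6). Both of these intervals overlapped those of cluster 1. MMP13 was higher in clusters 20 and 28, at 334 and 333 CPM, than in cluster 1, and these intervals did not overlap that of cluster 1. CD109 was lower in cluster 1 than in cluster 24 at 66.4 CPM, cluster 20 at 48.5 CPM and cluster 10 at 47.8 CPM, of which only the interval of cluster 24 lay apart. The lowest level of all 5 genes was in cluster 4, named centroacinar progenitor, where DLK2 stood at 1.15 CPM, SCN4B at 1.48 CPM and MMP13 at 32.6 CPM.

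**Figure D1:**
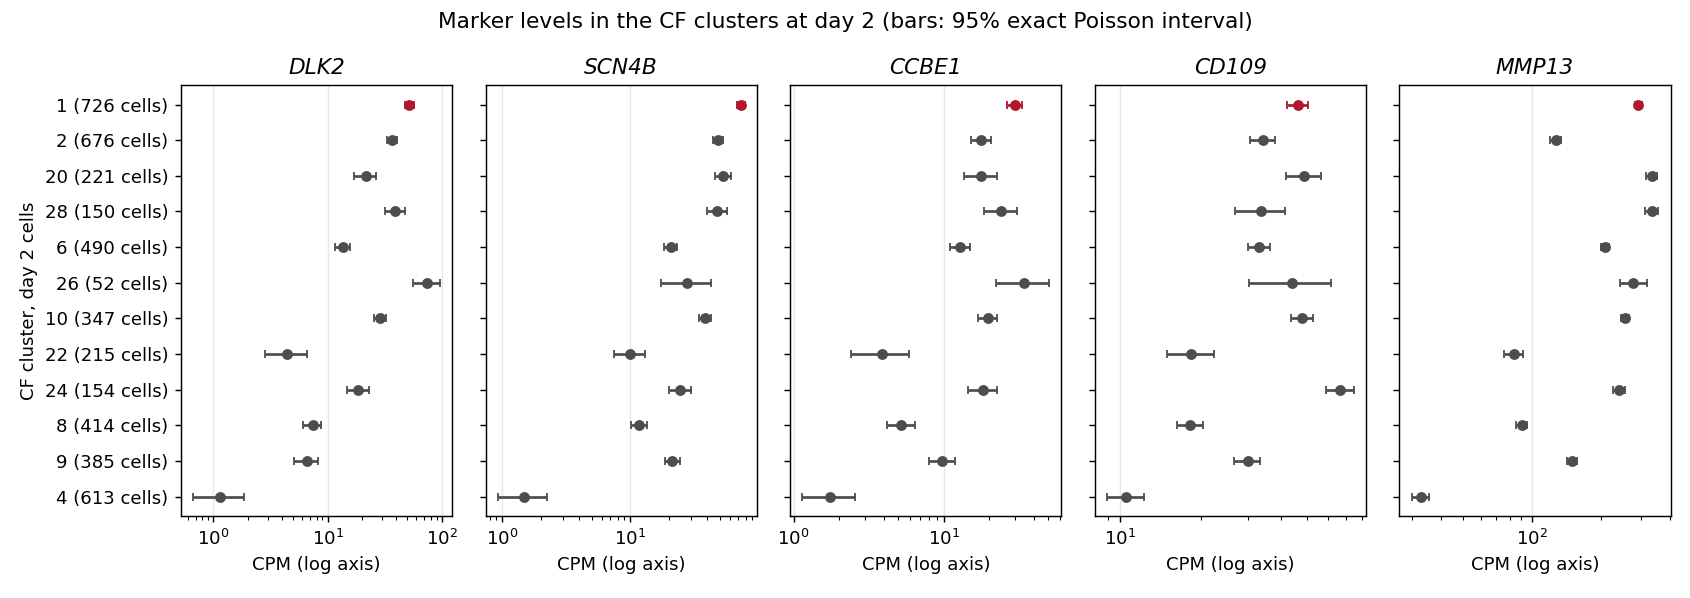
Level of each marker in the 12 CF clusters with at least 50 cells at day 2, in CPM on a log axis, ordered by how closely each resembled cluster 1 across all genes. Points are sums over cells of 1 library, bars are 95% exact Poisson intervals, and cluster 1 is in red; only SCN4B is highest in cluster 1, and all 5 genes are lowest in cluster 4.

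Single cells showed the markers sparsely. After every cell was thinned to 3000 UMIs, DLK2 was seen in 13.9% of 721 cells of cluster 1 (11.4% to 16.6%) and in 4.49% of 3739 other CF day 2 cells. MMP13 was seen in 49.4% of the cluster 1 cells (45.7% to 53.1%) and in 31.6% of the others. In cluster 4 of the same library, the lowest for all 5 markers, DLK2 was seen in 0.164% of 611 cells and MMP13 in 7.04%. The shares in cluster 1 were above those in cluster 4 for all 5 markers, with CD109 at 11.8% against 2.62%, SCN4B at 20.2% against 0.164%, and CCBE1 at 7.91% against 0.164%. Cluster 4 had the lowest level of each gene, so this order was given beforehand. Free RNA in the droplets was not measured. Median depth before thinning was 13070 UMIs in cluster 1, 20443 in the other cells and 21261 in cluster 4. Without thinning, DLK2 was seen in 41.2% of the cluster 1 cells.

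At 10000 UMIs per cell, all 5 markers were seldom seen in the same cell. Detection was incomplete for each gene, so this does not place the markers in different cells. Of 661 cells of cluster 1 with that depth, 4.08% showed none of the 5 genes, 75.6% showed at least 2, 34.5% at least 3 and 0.756% all 5. Among the 3519 other CF day 2 cells, 26.4% showed none and 12.7% at least 3. Clusters 20 and 28 were closer to cluster 1, with 4.85% and 4.14% showing none and 29.6% and 24.1% at least 3. In cluster 2 these shares were 13.3% and 19.3%. Between cells of cluster 1, MMP13 varied more than counting alone gives, with a median of 2 UMIs, an upper 10% of cells from 7 UMIs, and a variance of 2.61 times the mean. The median ratio of variance to mean over the 3972 genes of at least 0.3 UMIs per cell was 1.05. SCN4B and CD109 lay near it, at 1.12 and 1.13, and DLK2 was at 1.71. The largest ratio of variance to mean was that of CLU, a secreted chaperone, at 16.9, with a median of 4 UMIs and an upper 10% of cells from 19 UMIs. Abundant genes seen in every cell, such as S100A6 and COX1, were also near the top. The ratio therefore does not rank genes by relative spread.

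The class name did not match the markers of that class. Of 6 centroacinar markers of the study, 3 were abundant enough to be counted, and each was lower in cluster 1 than in the other CF day 2 cells. S100A6, a calcium-binding protein, stood at 11132 CPM against 24439, WSB1 at 49.9 CPM against 64.9 and KRT7, a keratin of simple epithelia, at 1949 CPM against 2153. PROM1, a membrane protein of duct and progenitor cells, had 0 UMIs in cluster 1, S100A4 had 1, and KRT16 was not among the gene symbols of the matrices. The 6 markers of the ductal class were all above 0, 1 of them past 2-fold, as were the 7 of the acinar class, none past 2-fold. The ductal ones were led by KRT5 at 1780 CPM against 786 and CAPG at 669 CPM against 386. A separate list of 8 textbook duct genes did not share this direction. Of its 4 counted genes 2 lay above 0, none was at least 2-fold higher and 1 was at least 2-fold lower, with a median of -0.11. The keratin KRT8 stood at 464 CPM against 1218. Per the study's methods the class names came first from correlation with published pancreas data sets, and these genes were then used to describe clusters of these same libraries. The group is called CF cluster 1 in what follows.

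Markers of other cell types were at or near 0. Those of endothelium summed to 0 CPM in cluster 1, with all 6 genes at 0 UMIs. Those of textbook acinar cells summed to 0.0956 CPM with 4 of the 5 measured genes at 0, endocrine markers to 0.191 CPM with 7 of 9 at 0, glial markers to 0.0956 CPM with 3 of 4 at 0 and fibroblast markers to 0.670 CPM with 2 of 8 at 0. Immune markers summed to 16.2 CPM, against 25.2 in the other cells, with 4 of 6 at 0 and CD68, a lysosomal protein, at 12.9 CPM. PDX1, a pancreatic transcription factor, stood at 3.06 CPM (2.09 to 4.32), against 3.41 CPM in the other CF day 2 cells. CFTR transcripts stood at 1.24 CPM, against 2.64.

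Across all genes, cluster 1 had more lower genes than higher ones. Of 7660 genes with at least 10 CPM in either pool and 30 UMIs in both together, 113 were at least 2-fold higher in cluster 1, or 1.48%, and 340 were at least 2-fold lower, or 4.44%. Folds are taken on the log2 scale of CPM plus 1, which understates the change of genes near 1 CPM, and the median over all counted genes was -0.01. The limit fell between TNS4 at 1.00 and MCC just under it. When each other CF cluster was given equal weight in place of pooling its cells, 32 genes were higher and 255 lower, so the number of higher genes depended on how the remainder was composed.

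The 20 genes with the largest excess in cluster 1 included matrix, growth factor and signalling genes. COL18A1, a basement membrane collagen, stood at 106 CPM against 26.8, a ratio of 3.96 (3.68 to 4.25). CLU stood at 790 CPM against 261, and SFRP1, a secreted antagonist of WNT, at 334 CPM against 122. The WNT ligands WNT5B (23.6 CPM against 7.29) and WNT4 (13.1 CPM against 4.27) were in the same group. So were ASS1, an enzyme of arginine synthesis (51.3 CPM against 15.03), GAS1, a hedgehog co-receptor (12.5 CPM against 3.45), DUSP9, a phosphatase of MAP kinases (55.7 CPM against 17.4), and BDKRB2, a bradykinin receptor (24.4 CPM against 8.21). The single largest difference was that of LOC101679740, a protein-coding gene with no assigned symbol, at 896 CPM against 209, a log2 difference of 2.09. PXDC1, DLK2, SCN4B, GRIN3B, MEGF6, GZMA, NCKAP5 and AHNAK2 were also among the 20, with log2 differences from 1.49 for AHNAK2 to 1.78 for PXDC1.

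The 15 genes with the largest deficit differed more steeply than the higher genes. MAL, a protein of apical membrane traffic, stood at 2.30 CPM in cluster 1 and at 157 CPM in the other cells, a log2 difference of -5.59. MMP7, another matrix metalloproteinase, stood at 4.21 CPM against 201, so this enzyme lay opposite to MMP13. SCNN1A, the alpha subunit of the epithelial sodium channel, stood at 6.31 CPM against 124. DUOXA2, the maturation factor of a hydrogen peroxide-producing oxidase, had 2 UMIs in the whole of cluster 1, against 3763 in the others. CXCL17, a mucosal chemokine, stood at 8.42 CPM against 230, and UPK1A, a surface plaque protein of urothelium, at 1.24 CPM against 36.5. The mucins MUC4 and MUC16, RETNLB, NEBL, ATP6V1G3, CUNH15orf48 and 3 genes with no assigned symbol completed the 15, with log2 differences from -5.52 to -4.07.

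**Figure D2:**
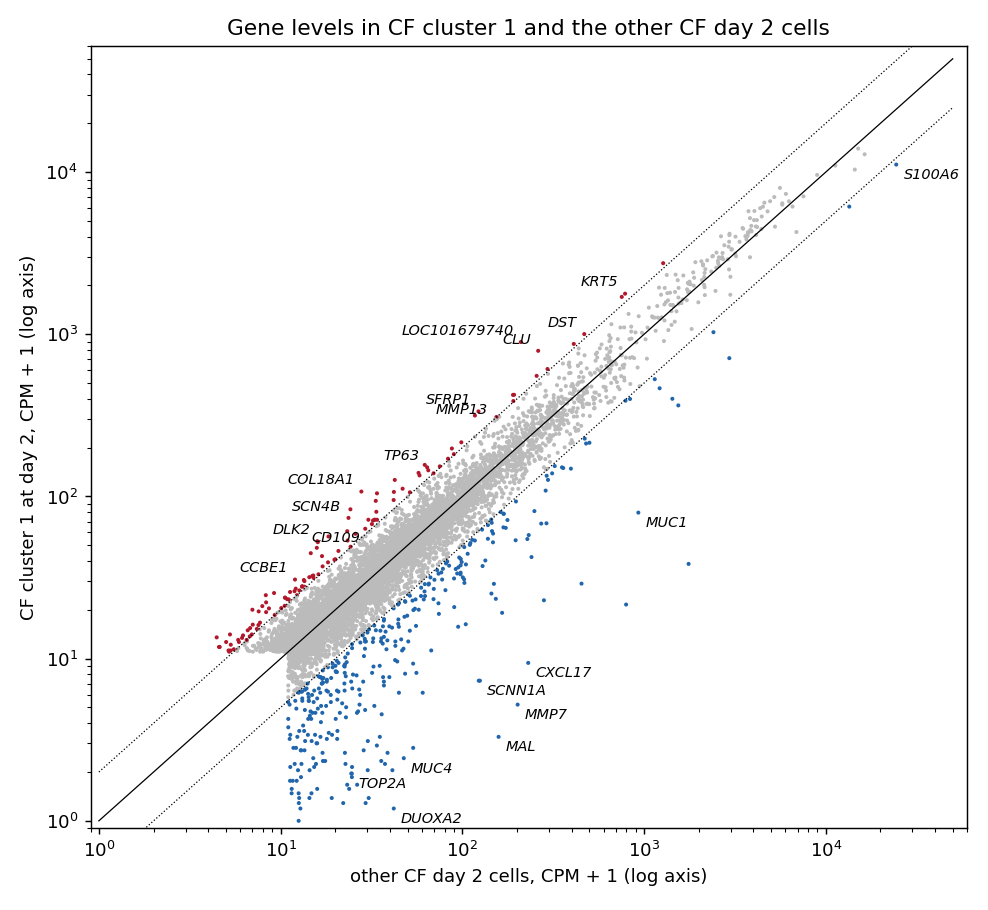
Level of each of the 7660 counted genes in CF cluster 1 at day 2 against the other CF day 2 cells, in CPM plus 1 on log axes. Red points are the 113 genes at least 2-fold higher in cluster 1, blue points the 340 at least 2-fold lower, and dotted lines mark 2-fold; the lower genes reach much further from the diagonal than the higher ones.

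Genes of matrix contact gave list medians on both sides of 2-fold. The counts of list members below stand against 1.48% of all counted genes higher and 4.44% lower by at least 2-fold. Of 6 counted genes of the basal epithelial list, 3 were at least 2-fold higher and none lower, with a list median of 1.08: KRT5, DLK2 and TP63, the transcription factor p63, which stood at 150 CPM against 63.1. DLK2 is 1 of the 5 markers that name the cluster, and without it 2 of 5 genes were past 2-fold and the list median was 0.98. All 6 hemidesmosome genes were above 0 with a median of 0.77, and DST, the plakin that ties keratin to the hemidesmosome, passed 2-fold at 1002 CPM against 468. COL17A1 stood at 299 CPM against 154 and ITGB4, the integrin of this junction, at 659 CPM against 357, both just short of 2-fold. Of 7 counted integrins none passed 2-fold and 6 were above 0, and of 9 counted laminin and basement membrane genes none passed and 7 were above 0, with a median of 0.39. In the collagen list 2 of 3 counted genes were past 2-fold, COL18A1 and COL5A2 (15.1 CPM against 6.55). The collagen median of 1.09 turned to -0.65 when cells of all 4 CF days were compared.

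Genes of proteolysis lay on both sides. Of 18 matrix metalloproteinases in the matrices only 3 were counted, MMP13, MMP7 and MMP15, and MMP15 stood at 4.59 CPM against 19.5. All 3 counted tissue inhibitors of metalloproteinases lay above 0, with TIMP3 past 2-fold (29.1 CPM against 12.5) and TIMP1 close to it (261 CPM against 134). Among 7 counted genes of the plasminogen system, 6 lay above 0 and 1 was at least 2-fold higher. Another 1 was at least 2-fold lower, the plasminogen activator PLAT, at 8.32 CPM against 52.6. PLAU, the urokinase gene, stood at 228 CPM against 220.

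Ligand genes differed from list to list. Of 4 counted Notch ligands and related genes, 3 were at least 2-fold higher, the marker DLK2 itself, DLL1 (139 CPM against 56.4) and JAG2 (70.7 CPM against 31.7), and JAG1 stood at 95.1 CPM against 61.9. Without DLK2 the median of these genes was 1.13, in place of 1.21. The receptor NOTCH2 stood at 19.03 CPM against 56.6, and NOTCH1 at 73.0 CPM against 85.5. Among Notch targets and modifiers, 1 of 5 counted genes passed 2-fold, LFNG, a sugar transferase that modifies the receptor (79.5 CPM against 32.6), and the target HES1 stood at 817 CPM against 436. Of the 2 counted receptors, NOTCH2 was thus more than 2-fold lower than in the pooled remainder, while DLL1 and JAG2 were more than 2-fold higher. In cluster 2, DLL1, JAG2, LFNG and HES1 were higher than in cluster 1, at 155, 79.6, 90.8 and 1005 CPM. DLK2 was lower there, at 36.4 CPM. Among 18 counted genes of EGFR ligands and feedback the ligands AREG and BTC were more than 2-fold lower, at 213 CPM against 500 and at 3.25 CPM against 19.1.

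Of 7 counted TGF-beta ligands and receptors, 1 was at least 2-fold higher, none was lower by that measure and 4 lay above 0. The list holds the marker CD109, and its median of 0.46 was 0.22 without it. The ligand TGFB1 stood at 94.1 CPM against 40.9, and the receptor TGFBR2, within 2-fold, at 113 CPM against 173. Of 8 counted targets, 2 were at least 2-fold higher, none was at least 2-fold lower and 7 were above 0, with a median of 0.78. PMEPA1, a target that dampens the pathway, was more than 2-fold higher, at 423 CPM against 192. CCN2, a matricellular target, stood at 494 CPM against 267 and SMAD7, an inhibitor within the pathway, at 73.2 CPM against 36.7.

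The VEGF and lymphangiogenic list, chosen around CCBE1, had 4 of 7 counted genes at least 2-fold higher, CCBE1 among them, and a median of 1.13. Without CCBE1 it had 3 of 6 and a median of 0.89. VEGFA stood at 215 CPM against 97.8, PDGFA at 144 CPM against 64.0, and NRP2, a co-receptor for VEGFC, at 22.8 CPM against 9.59. VEGFC itself stood at 32.7 CPM against 21.4. Of 3 counted FGF ligands and receptors, 2 were at least 2-fold higher, FGFR2 (45.1 CPM against 19.8) and FGF1 (10.2 CPM against 4.17). Of 8 counted WNT ligands and receptors, with a list median of 0.40, 3 were, WNT4, WNT5B and FZD10 (10.2 CPM against 4.31), while DKK1, a WNT inhibitor and target, stood at 7.17 CPM against 30.9.

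Secretory genes and genes of division were lower than in the pooled remainder. Low detection of MUC16 and MKI67 was shared with clusters 2, 20 and 28. After thinning to 3000 UMIs, MUC16 was seen in 1.11% of cluster 1 cells and in 22.9% of the other CF day 2 cells. In clusters 2, 20 and 28 it was seen in 2.07%, 1.81% and 3.33%. MKI67 was seen in 0.277% of cluster 1 cells and 2.19% of the others, and in 0.296%, 0% and 0% of clusters 2, 20 and 28. All 6 counted mucin and secretory genes were at least 2-fold lower, with a median of -3.79, among them MUC1 at 78.5 CPM against 930 and SCGB1A1 at 0 UMIs in cluster 1 against 1063. Of 8 counted centroacinar progenitor markers 6 were at least 2-fold lower. Of 11 counted G2/M genes, 9 were at least 2-fold lower, with TOP2A at 0.956 CPM against 23.5 and MKI67 at 4 UMIs in the cluster, and of 10 counted S phase genes 6 were. Interferon-response genes gave 5 of 7 lower by at least 2-fold, including IFI6 at 528 CPM against 1145. Of 16 counted junction genes none was higher and 2 were lower by that measure, CDH1, the gene of E-cadherin (211 CPM against 479), and OCLN, a tight junction protein (17.9 CPM against 73.3).

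**Figure D3:**
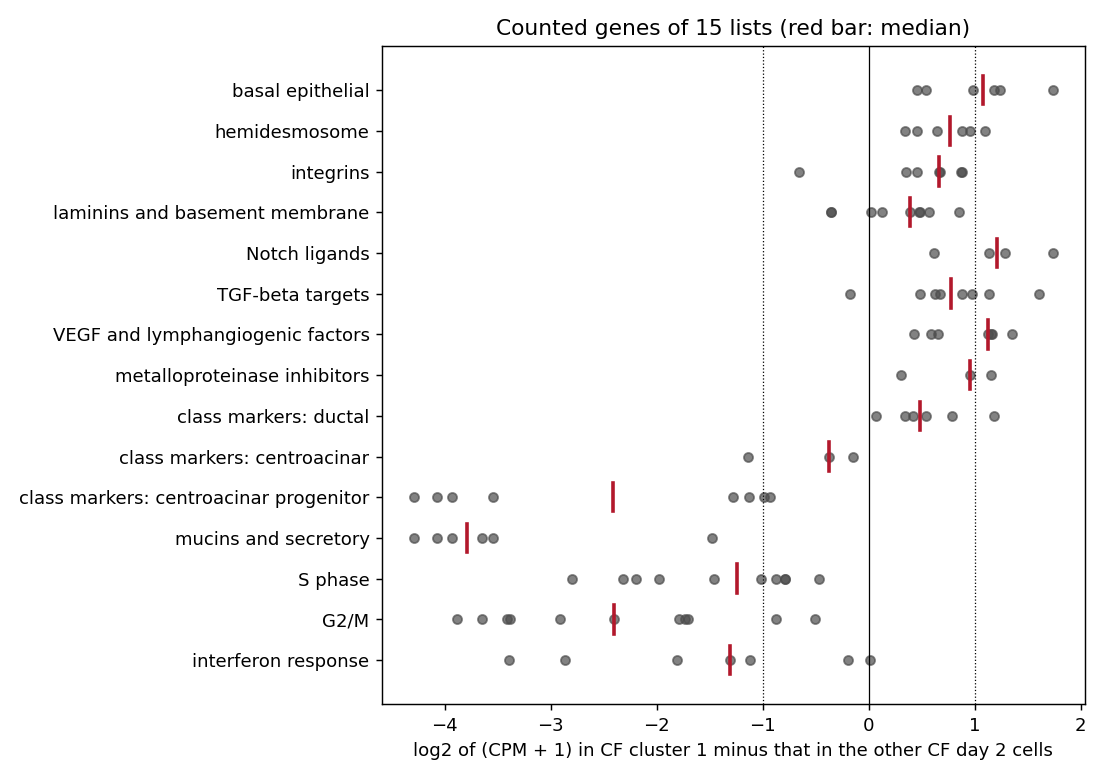
Log2 difference of each counted gene in 15 gene lists, cluster 1 minus the other CF day 2 cells, on the scale of CPM plus 1. Each dot is a gene, the red bar is the list's median and dotted lines mark 2-fold; the medians of the basal epithelial, Notch ligand and VEGF lists, each of which holds a marker of the cluster, lie past 2-fold to the right, and those of the mucin, progenitor-marker and cell-cycle lists to the left.

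Of the 47 lists with at least 3 counted genes, 12 had a median at or beyond 2-fold. The 6 above were the marker list itself, basal epithelial genes, Notch ligands, FGF genes, collagens and VEGF genes, and the 6 below were mucins, centroacinar progenitor markers, G2/M, S phase, interferon response and matrix metalloproteinases. Of these, the basal epithelial, Notch ligand, VEGF and metalloproteinase lists each hold 1 of the 5 markers, and without it the basal epithelial and VEGF medians were under 2-fold. With equal weight for each other CF cluster 7 lists had such a median, and none of the 6 above did, with medians from 0.69 to 0.95. Leaving the markers out was chosen after the data were seen. The lists were chosen with earlier results of these data known. Genes of acute stress were not higher as a group: of 9 counted heat shock and dissociation genes 1 was 2-fold higher, HSPB1 (1700 CPM against 753), and 1 was 2-fold lower, FOS (226 CPM against 471).

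The nearest cluster carried another class name. By Pearson correlation of log2 levels over 8639 genes, given as a description since all clusters share 1 library, cluster 2, named ductal, came first at 0.993, followed by cluster 20 at 0.986 and cluster 28 at 0.982, both named centroacinar. The last was cluster 4 at 0.859. Cluster 2 held 676 day 2 cells.

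Against cluster 2, only 7 of 7434 counted genes were at least 2-fold higher in cluster 1, or 0.0942%, and 9 were at least 2-fold lower, or 0.121%. The higher genes were LTB, FST, MMP13, SFRP1, ETV4, LOC101679740 and LOC101686339. MMP13 stood at 292 CPM against 127, a ratio of 2.30 (2.15 to 2.45), FST, a secreted binder of activin, at 111 CPM against 45.3, and LTB, a lymphotoxin, at 18.3 CPM against 5.09. The lower genes included FOS (226 CPM against 605), DUSP1 (76.9 CPM against 207), NR4A1 (4.97 CPM against 13.4) and BTG2 (327 CPM against 686), which belong to the immediate response of cells to a stimulus, and SOCS3, EDN2, LGALS9, MUC1 and LOC101672378. KRT5, TP63 and DLL1 were within 2-fold between the clusters, at 1452 CPM, 129 CPM and 155 CPM in cluster 2. MMP13 was thus among the 16 genes that separated 2 clusters of different class names by at least 2-fold. The other markers were within 2-fold, with DLK2 at 36.4 CPM, SCN4B at 48.6 CPM, CCBE1 at 17.8 CPM and CD109 at 34.1 CPM in cluster 2.

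Against cluster 20, 8 of 7468 genes were at least 2-fold higher in cluster 1, or 0.107%, and 53 were lower, or 0.71%. DLK2 was among the higher, at 52.0 CPM against 21.6, together with GAS1 and TIMP3. The lower genes included chemokines and cytokines. CXCL6 had 3 UMIs in cluster 1 and stood at 21.6 CPM in cluster 20. CSF2 stood at 1.43 CPM against 18.3, IL1A at 9.56 CPM against 43.6, CCL20 at 3.16 CPM against 19.9 and BCL2A1 at 88.1 CPM against 231. MMP13 was close between the clusters, at 292 and 334 CPM.

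Against cluster 28, 41 of 7427 genes were at least 2-fold higher in cluster 1, or 0.552%, and 50 were lower, or 0.673%. FST stood at 111 CPM against 429 and SERPINB2, an inhibitor of plasminogen activators, at 4.11 CPM against 48.1. MYL9, a myosin light chain of contractile cells, stood at 1.53 CPM against 21.8. SQLE, an enzyme of sterol synthesis, was also among the lower, at 29.7 CPM against 86.3. ZBTB16, a transcription factor, was higher in cluster 1, at 54.996 CPM against 12.98. Within 2-fold, KRT5, DST and ITGB4 were higher in cluster 28 than in cluster 1, at 2175, 1688 and 975 CPM. So were CLU and SFRP1, at 1110 and 529 CPM. TP63 and COL17A1 were close between the clusters, and COL18A1 was lower in cluster 28, at 72.6 CPM. These genes were chosen for naming after their values were seen, as were those of the comparisons with clusters 2 and 20.

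The markers followed different courses over the 8 libraries. Over all retained CF cells, DLK2 stood at 18.7, 14.2, 12.6 and 4.20 CPM at day 2, 5, 7 and 9, and in WT at 22.0, 3.85, 2.63 and 0.389 CPM. SCN4B stood at 27.8, 22.6, 20.2 and 6.44 CPM in CF and at 20.4, 6.21, 7.35 and 2.76 CPM in WT. Both genes were lowest at day 9 in each genotype and were higher in CF than in WT at day 5, 7 and 9. CCBE1 stood at 12.9, 9.84, 7.46 and 3.72 CPM in CF and at 28.3, 4.19, 6.11 and 4.21 CPM in WT. CD109 stood at 31.0, 5.71, 5.41 and 6.40 CPM in CF and at 41.7, 12.9, 9.31 and 5.56 CPM in WT, so most of its difference lay between day 2 and day 5 in each genotype.

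MMP13 ran in opposite directions. It stood at 164, 91.5, 62.2 and 48.4 CPM in the CF libraries from day 2 to day 9, and at 53.7, 69.7, 84.8 and 95.3 CPM in the WT libraries. The CF level was the higher one at day 2 and day 5 and the lower one at day 7 and day 9. Without cluster 1, the CF library of day 2 still stood at 150 CPM for MMP13 and 14.9 CPM for DLK2. With 1 library for each genotype and day, these courses have no replicate check.

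**Figure D4:**
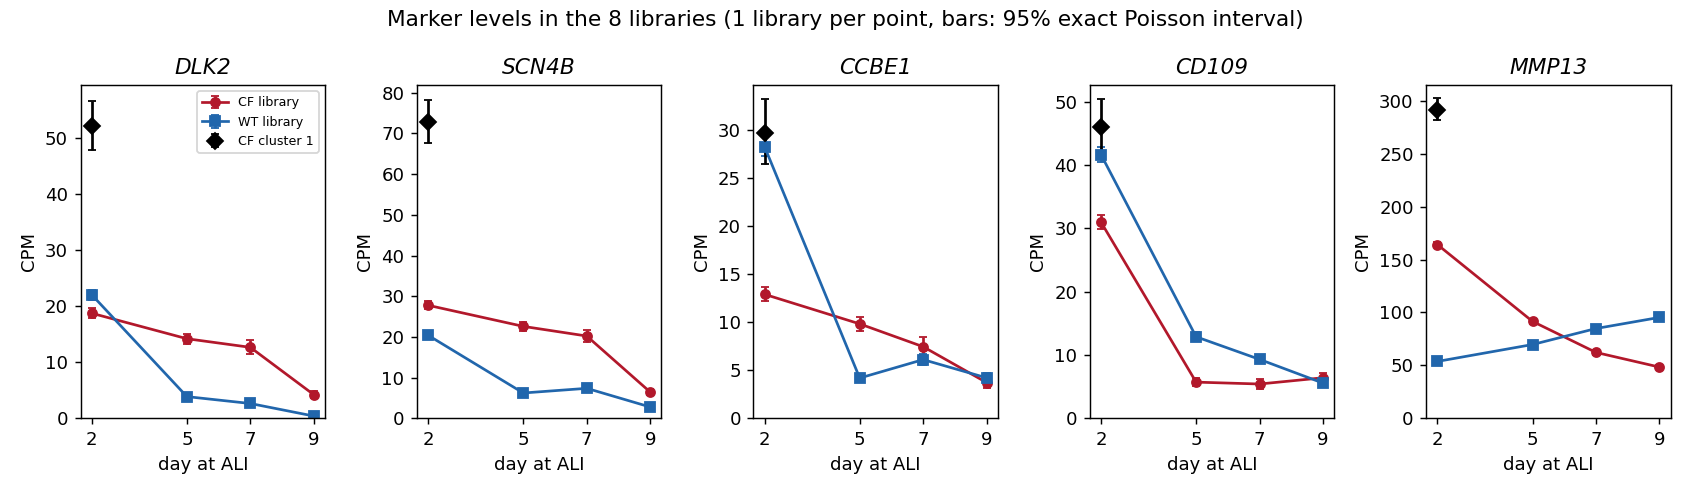
Level of each marker in CPM by day at ALI in the 4 CF libraries (red circles) and 4 WT libraries (blue squares), with CF cluster 1 at day 2 as a black diamond and 95% exact Poisson intervals as bars. DLK2, SCN4B, CCBE1 and CD109 are lower at day 9 than at day 2 in each genotype, whereas MMP13 is lower at day 9 in CF and higher at day 9 in WT.

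The 7 cells at day 5 held 145033 UMIs in all, and they were placed in cluster 1 by their expression, so a likeness to the day 2 cells is built in. MMP13 stood at 255 CPM (180 to 352), SCN4B at 75.8 CPM (37.9 to 136), DLK2 at 41.4 CPM (15.2 to 90.04, 6 UMIs), CCBE1 at 20.7 CPM on 3 UMIs and CD109 at 13.8 CPM on 2 UMIs. These 5 intervals included the day 2 level of the cluster. KRT5 stood at 1296 CPM (1118 to 1495), below its day 2 level of 1780 CPM. After day 2, other CF clusters named centroacinar held part of the pattern. Cluster 0 (741 cells, mostly day 5), cluster 16 (354 cells, mostly day 7) and cluster 14 (365 cells, mostly day 9) had DLK2 at 35.5, 33.7 and 30.3 CPM and TP63 at 168, 209 and 152 CPM. In the same 3 clusters CD109 stood at 5.41, 3.92 and 4.67 CPM, and MMP13 at 38.4, 31.1 and 100.1 CPM.

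In the authors' slingshot ordering, cluster 1 had the lowest median pseudotime of all clusters with at least 50 scored cells on each of the 13 CF lineages. On lineage 1 its median was 6.60 (quartiles 5.42 and 8.01), against 7.93 for the next, cluster 2, on a scale that ran to 112. Pseudotime is a distance along a fitted path in arbitrary units. Per the study's methods each ordering was started from the cluster with the most day 2 cells, and cluster 1 is that cluster, so its place at the start follows from the setting and is no separate result. The next cluster was cluster 2 on 8 lineages, cluster 28 on 4 and cluster 20 on 1.

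No WT cluster had all 5 markers at the level of CF cluster 1. The 13 WT clusters with at least 50 day 2 cells fell apart by SOX2, a transcription factor of foregut epithelia. It stood at 2.51 to 4.91 CPM in 3 of them and at 99.99 to 208 CPM in the other 10. CF cluster 1 had 0 UMIs of SOX2, and the 4 CF libraries had at most 0.0864 CPM, against 68.5 to 115 CPM in the WT libraries. The pooled donors, the library and the genotype cannot be told apart in this difference.

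WT cluster 19 resembled CF cluster 1 most over 9836 genes, with a correlation of 0.962, and it was 1 of the 3 WT clusters low in SOX2. Its 556 day 2 cells had MMP13 at 169 CPM, DLK2 at 21.1 CPM, SCN4B at 20.2 CPM, CCBE1 at 5.40 CPM and CD109 at 19.6 CPM. Of 7618 genes counted, 159 were at least 2-fold higher in CF cluster 1, or 2.09%, and 175 at least 2-fold lower, or 2.3%. ECRG4, a secreted precursor peptide, stood at 1545 CPM in CF cluster 1 and 21.3 CPM in WT cluster 19, while BCAM, a laminin receptor, stood at 1.15 CPM against 126. Over all cells of the CF day 2 library ECRG4 stood at 1551 CPM and BCAM at 0.508 CPM, so these genes did not set cluster 1 apart within CF.

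WT cluster 4 was the WT cluster with the most DLK2 at day 2, and it held 1025 day 2 cells under the name ductal. DLK2 stood there at 45.8 CPM (42.3 to 49.4), SCN4B at 42.3 CPM, CCBE1 at 46.8 CPM and CD109 at 59.4 CPM. KRT5 and TP63, at 1937 and 144 CPM, were close to their levels in CF cluster 1. MMP13 stood at 33.5 CPM (30.6 to 36.7), so that CF cluster 1 was 8.70 times as high (7.89 to 9.60). COL18A1 at 17.4 CPM, TIMP1 at 42.8 CPM and CLU at 228 CPM were also more than 2-fold lower in WT cluster 4 than in CF cluster 1. The genotypes thus each had a numerous day 2 cluster with DLK2, KRT5 and TP63, with high MMP13 in the CF one. In WT, cluster 6 (908 cells) was another, with DLK2 at 41.5 CPM. SOX2 stood at 128 CPM in WT cluster 4, whereas CF cluster 1 had no SOX2 UMIs. The WT clusters low in SOX2, 19, 11 and 33, had MMP13 at 169, 198 and 77.8 CPM. WT cluster 35, not low in SOX2, had 356 CPM on 57 UMIs. Genotype and SOX2 level cannot be told apart in the differences between CF cluster 1 and WT cluster 4.

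Within its own library, WT cluster 4 had many of the genes that led in CF cluster 1. Of 7773 genes counted, 59 were at least 2-fold higher in WT cluster 4 than in the other WT day 2 cells, or 0.759%. Of these, 23 were also among the 113 genes of CF cluster 1, which is 20.4% of the CF genes and 39.0% of the WT genes. The 23 included DLK2, for which the cluster was chosen, and SCN4B, KRT5, DLL1, SFRP1, WNT5B, CLU, VEGFA, FGFR2, TIMP3, COL5A2, IGFBP3 and SOX4. Over all genes counted in this WT comparison the median log2 difference was -0.002. Of all 113 genes, 103 lay above 0 in WT cluster 4 and 10 below, with a median of 0.76. The lowest was HSPB1, at 7.92 CPM in WT cluster 4 and a log2 difference of -4.99, and PXDC1 (-1.08) and DUSP9 (-0.86), both among the 20 leading genes of CF cluster 1, were also below. HSPB1 was the only one of those below 0 among the 89 genes abundant enough in WT to be counted. The CF and WT comparisons share no library.

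**Figure D5:**
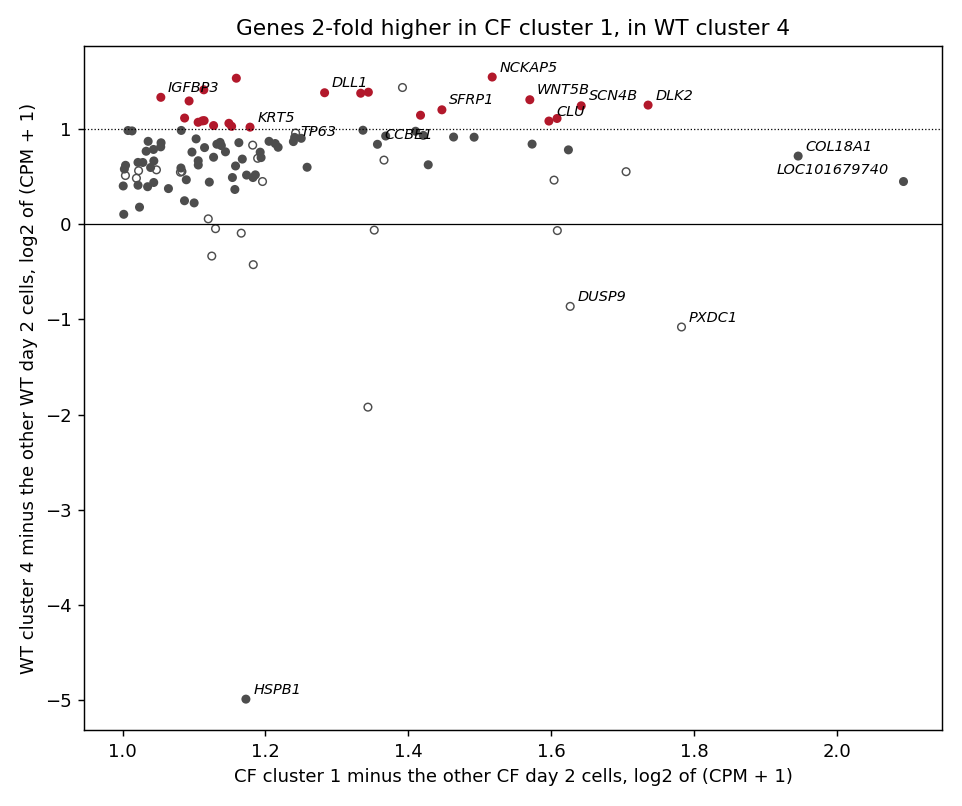
Each dot is 1 of the 113 genes that were at least 2-fold higher in CF cluster 1, with its log2 difference in CF (x axis) and that of WT cluster 4 against the other WT day 2 cells (y axis). Filled dots are the 89 genes counted in WT, of which the 23 past 2-fold in both are red, and open circles are the 24 under the limit of abundance there. HSPB1 lies far below 0, and the other 9 genes below 0 are open circles.

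WT cluster 19 was compared with its library in the same way. Of all 113 genes, 71 lay above 0 there and 42 below. Their median log2 difference was 0.44, against 0.005 over all genes counted there. Of 7920 genes, 334 were at least 2-fold higher there than in the other WT day 2 cells, or 4.22%, and 508 lower, or 6.41%. The higher genes shared 19 with the 113 of CF cluster 1, which is 16.8% of the CF genes and 5.69% of the WT genes, among them COL18A1, GRIN3B, GZMA, PXDC1, PMEPA1, NRP2, HSPB1 and LOC101679740. The lower genes shared 109 with the 340 of CF cluster 1, or 32.1% and 21.5%. DLK2 and SCN4B did not mark WT cluster 19, with log2 differences of -0.06 and -0.01, and MMP13 did, at 169 CPM against 45.1 in the other WT day 2 cells. COL18A1 was at least 2-fold higher there too. In CF cluster 1, DLK2, SCN4B and COL18A1 passed 2-fold against the other CF day 2 cells and MMP13, at a ratio of 1.95, did not.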

How the data were processed

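Cell Ranger 5.0.1 was the authors' aligner and counter, used with the ASM1176430v1.1 genome of the ferret and an annotation they had extended, and the deposited matrices hold whole UMI counts of 27912 genes for each barcode. In Seurat under R 4.1.2 the authors removed cells with few genes or a high percent of mitochondrial counts, which left no cell under 501 genes. They removed doublets with DoubletFinder, so no caller was run again. Their deposited cell table gave the UMI count, the percent of mitochondrial UMIs, the cluster and the class name, and a further deposited table gave a pseudotime score for each cell and lineage. WT and CF cells had been clustered separately.

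Of 32945 retained cells, 32868 had a deposited count within 0.1% of the matrix. UMIs were summed over the cells of each pool and scaled to CPM. Log2 differences used CPM plus 1 on genes of at least 10 CPM in either pool and 30 UMIs in both together. Shares were taken after 1 random thinning to 3000 UMIs (also 10000, and none), so they carry the noise of that draw, and a count of 0 was given the limit of 3 counts. The 8 libraries held 34735952 to 114585136 UMIs in retained cells. With 1 library for each genotype and day, no test was run and no p-value is given. The members and gene lists were chosen with earlier results of these data known. Genes were named by rule: the 5 markers, the 20 highest and the 15 lowest, up to 4 genes of a list and the class markers, with exceptions stated; a few genes are not reported here. A planned promoter motif search was not run here, as no sequences were used. The calculation of folds between summed pools was tested on simulated counts. Alternatives used edgeR 4.0.16 TMM factors and DESeq2 1.42.0 size factors over the clusters' sums. Software was Python 3.11.15, numpy 2.4.6, scipy 1.17.1 and R 4.3.3.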

Additional observations from a re-analysis of the deposited data

How the results depend on the processing

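With 1 library for each genotype and day, no replicate could be left out, and no value has an error beyond counting. No paired analysis was possible because each group holds 1 library. The number of genes at least 2-fold higher in cluster 1 was 113, and it was 55 with a pseudocount of 5 CPM, 56 with a mean of per-cell CPM, 32 with equal weight for each other CF cluster (11.1% of the 2-fold genes, against 24.9%) and 50 among genes of at least 50 CPM. The 340 lower genes became 611 with no CPM filter and 118 at 50 CPM. The median log2 difference of the 5 markers, 1.36, was 1.12 with the larger pseudocount, 0.94 with equal weights and 1.66 with cells of all 4 CF days, a setting that moved the median of all genes to -0.11. The 12 lists with a median at or beyond 2-fold became 7 with equal weights. The collagen list had a median of 1.09 and reversed to -0.65 with cells of all 4 days. The cluster was 13.3% of all deposited barcodes of the library. DLK2 was seen in 31.8% of cells at 10000 UMIs and 41.2% without thinning, in place of 13.9%. TMM and DESeq2 factors moved the 2 counts of genes by less than 1.5 times. Every marker stayed above 0 under all 10 alternatives, with CD109 from 0.39 to 1.59 and MMP13 from 0.59 to 1.53. The 3 nearest clusters were the same under Spearman correlation and at 50 CPM. Genes under 10 CPM, including most metalloproteinases, could not be compared at this depth.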

Other observations

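Further groups were measured in CF cluster 1 at day 2 against the other CF day 2 cells. The EGFR list and some of the genes were also named above. Over all counted genes 1.48% were at least 2-fold higher and 4.44% at least 2-fold lower. Of 18 counted genes of EGFR ligands and feedback, 1 was at least 2-fold higher, ETV4 (24.8 CPM against 10.3), and 3 were at least 2-fold lower, AREG, BTC and the receptor ERBB3 (5.55 CPM against 23.8). Of 17 counted glycolysis and hypoxia genes, 2 were at least 2-fold higher, the glucose transporter SLC2A1 (152 CPM against 74.2) and VEGFA, and none lower, with a list median of 0.30. Of 13 counted progenitor transcription factors, SOX4 (871 CPM against 410) and TP63 were at least 2-fold higher and KLF4 (12.3 CPM against 31.3) at least 2-fold lower. PAX6 stood at 65.0 CPM against 86.1.

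Among 7 counted S100 proteins, S100A2 (2743 CPM against 1274) and S100A6 were at least 2-fold apart in opposite directions. The potassium channel KCNN4 stood at 105 CPM against 50.5, and IGFBP3, a binder of insulin-like growth factors, at 610 CPM against 293. Within cluster 1, LY6D, a surface protein of stratified epithelia, was seen in 15.6% of 661 cells thinned to 10000 UMIs, with a variance of 10.9 times its mean. CRABP2, a retinoic acid carrier, was seen in 19.2%. LY6D stood at 57.9 CPM in cluster 1 against 19.5 in cluster 28, and CRABP2 at 68.2 CPM against 19.5.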
